A study of Mus musculus with 6 samples.

Results

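Alternative 5′ splice sites are pairs of donor sites at the end of the same exon, of which the spliceosome uses the near one, giving a shorter exon, or the far one, giving a longer exon. The pairs described here are the 9261 alternative 5′ splice site events of the deposited splicing table that consist of exactly 2 sites and are listed for the first of them. They make up a small part of the 265079 events of that table and lie in 5550 genes. The first site was the near one in every pair whose partner is listed (9247 pairs). The partner served only to give the distance between the sites, and 14 pairs have none. The members were chosen by event name and position, not by any measured value.

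The values come from RNA of heart tissue of 3 control mice and 3 cKO mice. Controls carried Srsf3 with both copies flanked by loxP sites (Srsf3Fl/Fl). The cKO mice carried the same floxed gene and the βMHC-Cre transgene (Srsf3Fl/Fl-βMHC-Cre), in which the Myh7 promoter drives Cre recombinase in cardiomyocytes in utero. The mice were untreated, and the sources used here do not state age, sex or strain. Other heart cells keep a functional Srsf3, and in whole tissue a change of splicing within a cell type cannot be told apart from a change in the share of cells of that type. The deposited table holds 1 value per group for each event, so that no spread between hearts can be given and depth per sample is unknown.

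A 5′ splice site is first recognised by base pairing with U1 small nuclear RNA, and U6 takes its place before the intron is cut. Which of 2 competing sites is used depends on how well each pairs with U1 and on proteins bound nearby. SR proteins such as SRSF3 bind exonic sequence and help to recruit U1, while hnRNP proteins often oppose them. Where both sites lie in coding sequence, a distance that is a multiple of 3 adds or removes whole codons and any other distance shifts the reading frame.

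The largest changes lay in Strada and Znfx1. Near-site use in Strada, the pseudokinase that activates the kinase LKB1, was 1.58% in control and 55.8% in cKO, with a minimum change of 40 points in the authors' deposited table. The minimum change is the authors' own statistic, a lower bound: the largest value that the absolute difference between groups exceeds with a probability of at least 0.95. The far site, which keeps the 24 bases between the sites in the mRNA, was thus the main one in control and the less used one in cKO. Near-site use in Znfx1, a helicase with antiviral roles, was 3.81% in control and 66.0% in cKO, with a minimum change of 35 points in the authors' deposited table. In both pairs the main site differed between the groups. The other called pairs had minimum changes of 10 to 19 points in the authors' deposited table.

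The bases between the sites of the called pairs in coding sequence with at least 10 of them are shown first, since they are what the mRNA gains or loses. They were read from GENCODE M21 transcripts (GRCm38) that contain them, and the first 6 bases, in capitals, are the intron bases of the near site when that site is used.
Strada (chr11:106187101-106187124, minus strand): GTAAGTaaaccagagcgcattagg
Nbea (chr3:55955339-55955356, minus strand): GTATGAttaacacgacag
Traf2 (chr2:25538845-25538865, minus strand): GTGTGCatccattctctccag
Ints6 (chr14:62700631-62700660, minus strand): GTCTTAttaaaccccttcctctgcataaag
Rfx5 (chr3:94955137-94955146, plus strand): GTACCAtttc

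For the called pairs in 5′ UTRs the near site itself is shown, with 3 exon bases in small letters and 6 intron bases in capitals. For Strada, Parp9 and Ptp4a3 both sites could be read, and are shown so that the competing sites can be compared.
Znfx1, near site (chr2:167062588-167062596, minus strand): ccgGTGAGT
Adcy4, near site (chr14:55783934-55783942, minus strand): gcgGTGAGT
Wdr61, near site (chr9:54734469-54734477, minus strand): gtgGTGAGT
Nmnat3, near site (chr9:98296730-98296738, plus strand): cagGTAAGC
Eif4enif1, near site (chr11:3202795-3202803, plus strand): aggGTACGG
Strada, near site (chr11:106187119-106187127, minus strand): cttGTAAGT
Strada, far site (chr11:106187095-106187103, minus strand): aggGTGAGT
Parp9, near site (chr16:35943400-35943408, plus strand): cagGTATGA
Parp9, far site (chr16:35943508-35943516, plus strand): cagGTGTGT
Ptp4a3, near site (chr15:73751762-73751770, plus strand): cagGTATTT
Ptp4a3, far site (chr15:73752025-73752033, plus strand): gagGTGAGT

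Of the 9261 pairs, 23 in 23 genes had a minimum change of at least 10 points and are called changed here (0.248%), on 1 value per group. The same threshold, which is that of the authors' own short list, called 0.23% of all events and 33 of 12845 paired alternative 3′ splice sites (0.257%), so that the share of called pairs was near the background. Near-site use was higher in cKO in 16 of the called pairs (0.173%) and lower in 7 (0.0756%). Over all events the value was higher in cKO for 0.0792% and lower for 0.151%, but in most of them that value is the inclusion of an exon or the retention of an intron.

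**Figure D1:**
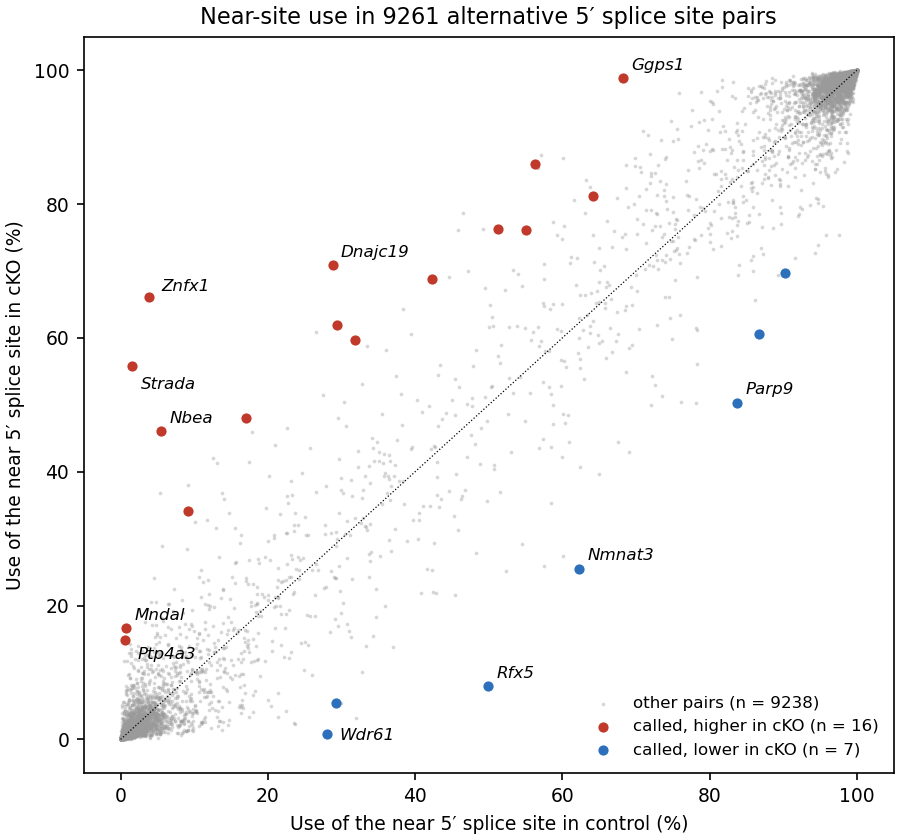
Use of the near 5′ splice site in control (horizontal, %) against cKO (vertical, %) for 9261 pairs, with 1 point per pair and 1 value per group. Most pairs sit in the corners, and the 16 pairs called higher in cKO (red) and 7 called lower (blue) lie away from the dotted line of equal use.

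Among called pairs in coding sequence, near-site use was higher in cKO in 7 and lower in 2. After Strada, the largest rise was in Nbea, neurobeachin, a scaffold of membrane traffic. Use of its near site, 18 bases upstream of the far one, rose from 5.46% in control to 46.0% in cKO. In Traf2, an adaptor of tumour necrosis factor receptors, near-site use rose from 56.3% to 86.0%, so that the 21 bases shown above were in fewer of its mRNAs in cKO. In Ints6, a subunit of the Integrator complex that cleaves nascent RNA, it rose from 31.9% to 59.6% over a distance of 30 bases. The distances in Strada, Nbea, Traf2 and Ints6 are multiples of 3. The bases between their sites lie inside annotated coding sequence, which by definition holds no in-frame stop codon. Of the other 5 coding distances 4 are not multiples of 3, among them that of Prpf6, described below. In Epc1, a subunit of the NuA4 acetyltransferase complex, the sites lie 4 bases apart and near-site use rose from 42.3% to 68.8%. Near-site use fell in Rfx5, a factor that activates MHC class II genes, from 49.96% to 7.98% over 10 bases, and in Grik5, a kainate receptor subunit, from 29.3% to 5.46% over 5 bases. Mndal, an interferon-inducible gene of the Ifi200 family, rose from 0.721% to 16.6% over 6 bases. Its near-identical relatives could share reads with it, so this value is uncertain.

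The pair in Prpf6, a protein of the U4/U6-U5 particle of the spliceosome, has its sites 1 base apart. Near-site use was 51.2% in control and 76.3% in cKO, with a minimum change of 10 points in the authors' deposited table. The same intron also has 3′ splice sites 1 base apart, at positions 181390126 and 181390127 of chromosome 2 (mm9). Use of the upstream one went from 51.6% in control to 76.0% in cKO. The upstream sites at both ends of the intron thus had nearly equal values in each group. Used together, the upstream sites give the same total of exon bases as the downstream sites, so that the reading frame would not shift. Whether they were used together was not tested, nor how surely reads can be assigned between sites 1 base apart. The call of this pair is uncertain to that extent.

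Of the called pairs whose bases between the sites fall in a 5′ UTR, near-site use rose in 3 and fell in 2. Besides Znfx1, whose sites are 84 bases apart, it rose in Adcy4, an adenylyl cyclase, from 29.4% to 61.9%. In Eif4enif1, which carries the cap-binding protein eIF4E into the nucleus and into sites of mRNA decay, it rose from 9.15% to 34.1%. It fell in Nmnat3, the mitochondrial enzyme of NAD synthesis, from 62.3% to 25.5% over a distance of 248 bases. In Wdr61, a subunit of the SKI complex that feeds RNA to the exosome, it fell from 28.0% to 0.817%. Of these 5 distances, those of the 3 pairs that rose are multiples of 3 and those of the 2 that fell are not. The frame has no coding meaning here, and among 5′ UTR pairs from 10% to 90% in control both frames were more often higher in cKO. For multiples of 3, 31 were higher and 18 lower, and for other distances 64 and 50. The 5 calls were 1.27% of 393 matched 5′ UTR pairs, against 0.248% of all pairs, which was not tested. Of the 5′ UTR pairs 41.5% lay from 10% to 90% in control, against 10.5% of all pairs. Within that range the called shares were close, with 3 of 163 5′ UTR pairs (1.84%) and 16 of 972 among all pairs (1.65%).

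The remaining 9 called pairs lay at the edge of coding sequence, in a noncoding transcript or at sites with no annotated exon match. In Ptp4a3, a phosphatase of the PRL family whose host gene had a mean of 14845 normalized counts in the authors' deposited table, near-site use rose from 0.62% to 14.9%. In Parp9, an interferon-induced member of the ADP-ribosyltransferase family, near-site use fell from 83.8% to 50.3% in a transcript annotated as noncoding. Trp53inp2, a regulator of autophagy, fell from 90.2% to 69.6%, and the exon event that ends at its far site was included at only 0.736% in control and 2.78% in cKO.

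The other unmatched pairs are known by their deposited positions on mm9 only. In Dnajc19, a co-chaperone of protein import into mitochondria whose loss causes cardiomyopathy, near-site use rose from 28.8% to 70.9% over 8 bases, with a minimum change of 10 points in the authors' deposited table. In Ggps1, which makes geranylgeranyl diphosphate, it rose from 68.2% to 98.8% over 395 bases. It also rose in Nat14 (17.1% to 48.1%), Fam82b (55.1% to 76.1%) and Rbm14 (64.1% to 81.2%). Trpc2, an ion channel gene, fell from 86.7% to 60.5%. Its gene mean was only 7.47 normalized counts in the authors' deposited table, and the number of reads behind this event is not known.

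**Figure D2:**
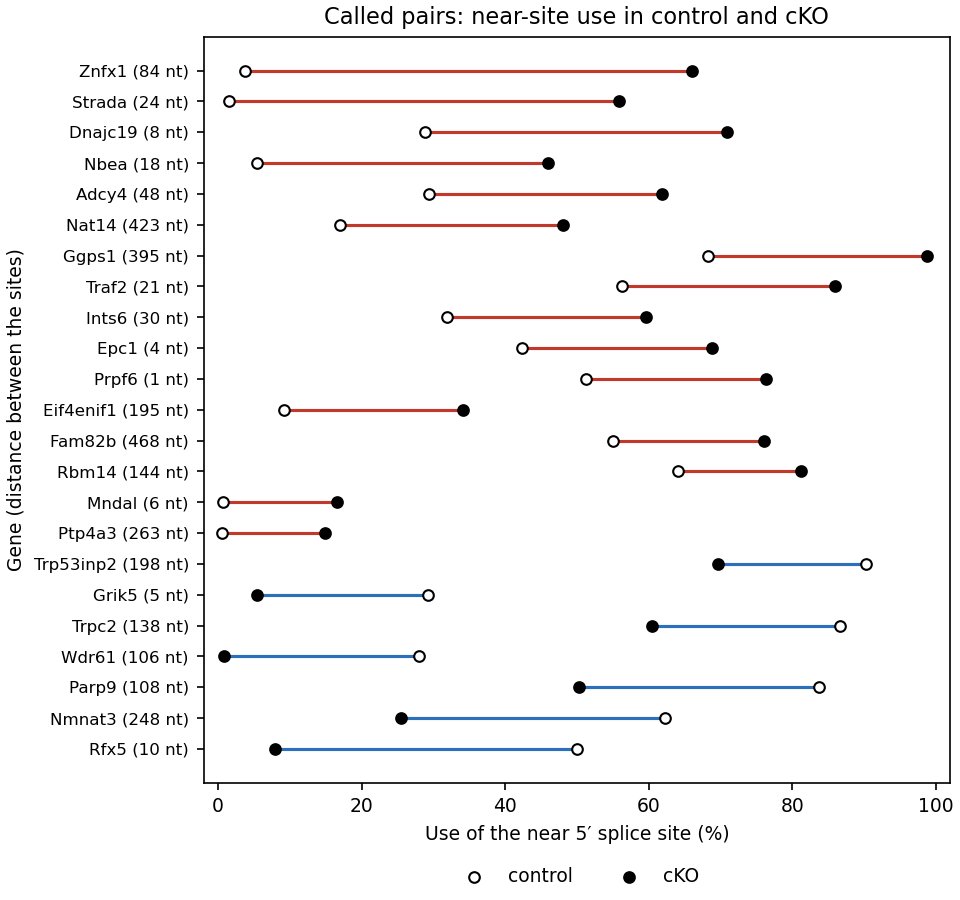
Use of the near 5′ splice site (horizontal, %) in control (open circles) and cKO (filled circles) for the 23 called pairs, ordered by the difference, with the distance between the sites beside each gene. Red lines mark pairs higher in cKO and blue lines pairs lower in cKO, from Znfx1 at 62.2 points to Rfx5 at -42.0 points.

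The ranges of the difference overlapped across the threshold: the 4 pairs at a minimum change of 10 points in the authors' deposited table differed by 15.9 to 42.1 points in size, the last being Dnajc19, and the 6 pairs at 9 points by 13.1 to 34.3 points. Just inside the threshold the smallest differences were in Mndal, Prpf6 and Adcy4 (15.9, 25.03 and 32.5 points). Just outside it the largest were in 3 genes: 4931406P16Rik differed by 34.3 points (26.6% to 60.9%), the cyclin gene Ccnl2 by 31.5 points (5.33% to 36.8%) and Dsel, an epimerase of dermatan sulfate, by -28.7 points (31.9% to 3.25%). Of 82 pairs that differed by at least 20 points, 62 were not called. Their host genes had a median of 939 normalized counts, against 1117 for the 20 that were called.

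Most pairs used one of their sites almost alone. In control hearts 3571 pairs (38.6%) used the near site under 10% of the time, 4718 (50.9%) over 90%, and 972 (10.5%) from 10% to 90%, called intermediate here. The median near-site use was 91.9% in control and 92.2% in cKO. Both groups were on the same side in most pairs, with 3443 under 10% and 4615 over 90% in both. The main site differed between the groups in 60 pairs, of which 7 were called. Among the 972 intermediate pairs the median absolute difference was 6.53 points, 517 values were higher in cKO and 455 lower, and 16 pairs (1.65%) were called, against 1.79% of all events that were intermediate in control.

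Near the ends of the scale the minor site was used less in cKO. Of 2535 pairs under 3% in both groups, 1696 (66.9%) were lower in cKO, and of 3417 pairs over 97% in both, 2528 (74%) were higher. The median absolute difference over all pairs was 0.528 points. Relative depth, estimated per gene from how close its fully included exons lay to 100%, had a median log2 ratio of 0.39 in cKO over control across genes. The part of depth in the small shifts of the pairs was not tested.

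Distances ran from 1 to 499 bases with a median of 38. The most common distance was 4 bases, with 880 pairs (9.52%), followed by 5 bases with 347. Distances of 9, 12, 15, 18, 21, 24 and 27 bases were each more frequent than both distances beside them, with 197 pairs at 9 bases against 125 at 8 and 134 at 10. Of the pairs with a partner, 3263 (35.3%) had a distance that is a multiple of 3, 3226 left a remainder of 1 and 2758 a remainder of 2.

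**Figure D3:**
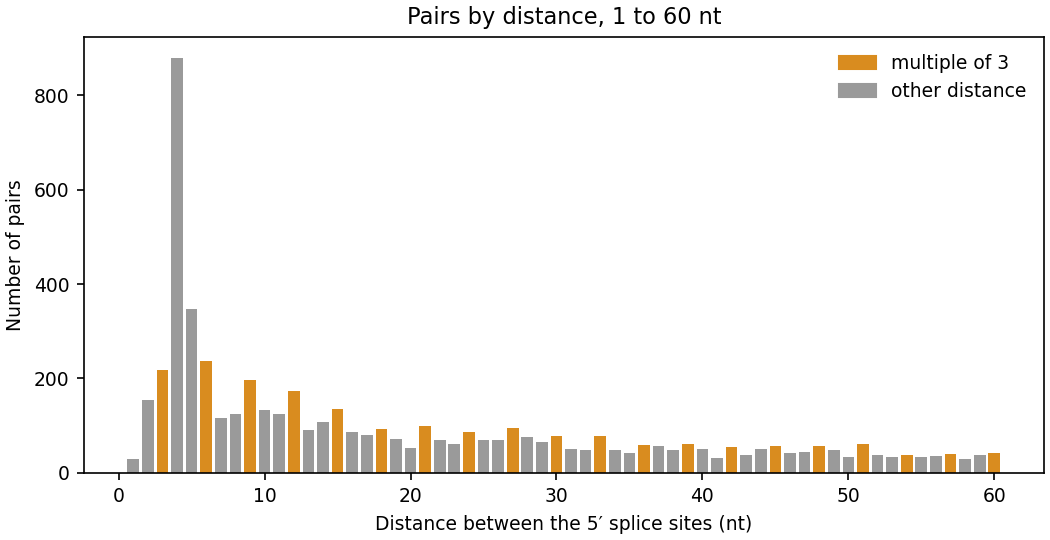
Number of pairs (vertical) at each distance from 1 to 60 bases between the 2 sites (horizontal), with multiples of 3 in orange and other distances in grey. The peak is at 4 bases with 880 pairs, and from 9 to 27 bases each multiple of 3 stands above the distances beside it.

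Near-site use differed with the distance, mainly between pairs up to 100 bases apart and pairs farther apart. The median in control was 32.9% for pairs 1-6 bases apart, 43.0% for 7-30, 48.2% for 31-100, 97.2% for more than 100 and up to 300, and 98.4% for over 300 bases. In cKO the medians were 31.7%, 43.6%, 48.7%, 97.7% and 98.8%. The order of the classes was the same in both groups, with the near site the main one in most pairs more than 100 bases apart. Between 100 and 300 bases 24.5% of pairs still used the near site under 10% of the time in control. Called pairs numbered 4 of 1867 (0.214%), 6 of 2356 (0.255%), 2 of 2561 (0.0781%), 8 of 1921 (0.416%) and 3 of 542 (0.554%) in the same order of classes. With so few calls in each class no trend was tested. In the class between 100 and 300 bases near-site use rose in 3 called pairs and fell in 5, and in the class over 300 bases, which holds Ggps1, Nat14 and Fam82b, it rose in all 3.

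Pairs that keep the frame were more often intermediate than pairs that shift it. Near-site use in control was intermediate in 438 of 3263 multiples of 3 (13.4%) and in 532 of 5984 other distances (8.89%), and the order was the same in each of the 5 distance classes. The largest gap was at 1-6 bases, with 14.5% against 6.73%. Of the multiples of 3, 14 were called (0.429%), and of the other distances 9 (0.15%). Among intermediate pairs alone the calls were 8 of 438 and 8 of 532. Among the pairs that were not intermediate they were 6 of 2825 (0.212%) and 1 of 5452 (0.0183%), so that the gap between the frames lay mostly outside intermediate use. These counts are small and the difference was not tested. The median absolute difference of intermediate pairs was 6.54 points for multiples of 3 and 6.499 points for other distances.

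The place of the bases between the sites was then taken into account. For 4106 pairs the exon could be matched to the annotation. Where the bases between the sites were coding, 19.6% of 1298 multiples of 3 were intermediate in control, against 8.39% of 1835 other distances. In 5′ UTRs, where the frame has no such meaning, the shares were 39.8% of 123 and 42.2% of 270. In noncoding transcripts they were 13.0% of 92 and 15.9% of 214. Since an exon known from one form only is likely to be matched through its long form, the coding pairs were also taken where both exons are annotated. There 155 of 303 multiples of 3 (51.2%) and 72 of 307 other distances (23.5%) were intermediate. With both exons annotated the shares were 11.1% of 9 and 53.1% of 32 in 5′ UTRs, and 20% of 25 and 16.2% of 80 in noncoding transcripts, so that the order in noncoding transcripts depends on the match and rests on few pairs. Calls in the coding pairs were 5 of 1298 multiples of 3 (0.385%) and 4 of 1835 others (0.218%), and neither this difference nor that between coding and 5′ UTR pairs was tested.

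**Figure D4:**
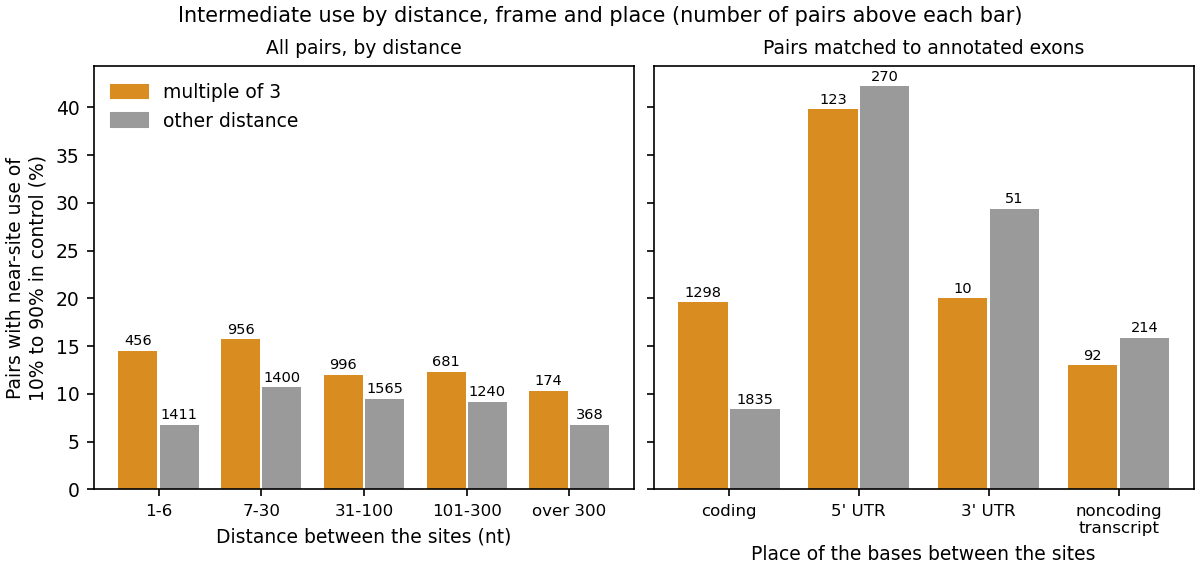
Percentage of pairs with near-site use from 10% to 90% in control (vertical, from 0), by distance class for all pairs (left) and by place of the bases between the sites for pairs matched to annotated exons (right). Orange bars are multiples of 3, grey bars other distances, and the number of pairs stands above each bar; coding pairs show 19.6% against 8.39%, and 5′ UTR pairs 39.8% against 42.2%.

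The bases at the sites were compared with use. The most frequent bases over 4421 sites that could be read were cagGTAAGT, the sequence that pairs with U1, and each site was scored by its matches to these 9 bases. In pairs with both exons annotated, the near site had a mean of 5.39 ± 1.01 matches (SD over 267 pairs) where its use in control was under 10%. The mean was 5.74 ± 0.949 (283 pairs) for intermediate use and 5.88 ± 0.946 (284 pairs) for use over 90%. Over all matched pairs the order differed, with means of 5.21 (2117 pairs), 5.63 (625 pairs) and 5.03 (757 pairs). With both exons annotated, a G at the fifth intron base was present in 57.7%, 58% and 70.4% of near sites.

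For 922 pairs both sites could be read, from transcripts that retain the intron. Median near-site use was 55.5% in control and 57.5% in cKO where the near site had more matches (212 pairs). Where the far site had more (478 pairs), it was 2.69% in control and 2.55% in cKO. With equal matches (232 pairs) it was also low, at 4.58% in control and 6.13% in cKO. Spearman's correlation of the difference in matches with near-site use was 0.21 in control and 0.20 in cKO, and -0.01 with the difference between the groups. These are descriptions across pairs, which share libraries and in part genes. Of the called pairs printed above with both sites, Strada had 7 matches at the near and 6 at the far site, and Parp9 and Ptp4a3 had 7 at both.

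Of the 4-base pairs, 404 were matched, and of these the near site began with GT in 171 (42.3%) and with GC in 180, and 121 had the bases GCAG between the sites. Over all matched pairs with a GC at the near site, 84.1% of 396 used it under 10% in control, against 63.3% of 3367 with a GT. Where both exons are annotated the shares were lower, 53.5% of 43 with a GC and 30.5% of 850 with a GT. The levels thus depend on the match.

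The pairs were also counted in 10 short lists of genes, which do not hold every gene of their kind. The share of all pairs called was 0.248%, against which a count of 0 in lists of 8 to 181 pairs is no result about them. In the sarcomere and Z-disc list 7 genes held 11 pairs, with 0 called. Myl2, the regulatory light chain of the ventricle, was nearest to equal use, at 73.8% in control and 81.2% in cKO. The list of cardiac ion channel and calcium handling genes, which does not include Trpc2 and Grik5, held 11 pairs in 7 genes with 0 intermediate and 0 called, and the L-type calcium channel Cacna1c stood at 8.69% and 17.2%. The mitochondrial list, made of respiratory chain, ribosome, import, carrier and fusion genes and without Dnajc19 and Nmnat3, held 181 pairs in 114 genes, of which 19 were intermediate (10.5%, the share of all pairs) and 0 called. The ATP synthase subunit Atp5j, with sites 4 bases apart, stood at 50.5% and 52.9%.

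In the core spliceosome list 1 of 49 pairs in 28 genes was called, that of Prpf6, with the uncertainty given above. The called pairs of Ints6, Wdr61, Eif4enif1 and Rbm14, described above, are listed under genes of other RNA processes and are in none of the lists. No annotated exon of Rbm14 was matched to its pair, so that the assignment to this gene is uncertain. Luc7l, a U1-associated protein that takes part in choosing 5′ splice sites, had near-site use of 49.3% in control and 76.3% in cKO, with a minimum change of 3 points in the authors' deposited table, and was not called. The SR protein and Tra2 list held 9 pairs with 0 called, and Srsf5 stood at 49.8% and 47.7%. Of 26 pairs in 16 hnRNP genes 0 were called, with Hnrnpa1 at 85.3% and 84.95%. The muscle splicing regulators held 8 pairs with 0 called, and Rbpms stood at 55.9% and 60.9%.

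In the list of mRNA decay and NMD genes 0 of 20 pairs were called, and Xrn1, the 5′ exonuclease, stood at 53.1% and 43.0%. In the autophagy and mTOR list, which does not include Trp53inp2, 0 of 39 were called, and Tsc1, an inhibitor of mTOR complex 1, stood at 32.8% and 53.1%. In the iron handling list 0 of 10 were called, and the iron transporter Slc11a2 stood at 11.7% and 6.33%.

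The authors' deposited table gives an adjusted p from DESeq2's Wald test for 5481 host genes. Of these 465 passed at 0.05 (8.48%), 227 higher and 238 lower in cKO, against 7.09% of all 15929 genes (3.78% higher and 3.31% lower). Among host genes of called pairs 3 of 22 passed, all higher in cKO. In the authors' deposited table, with DESeq2's adjusted p, the log2 fold change was 0.33 for Prpf6 (SE 0.08, adjusted p = 0.00137), 0.37 for Strada (SE 0.11, adjusted p = 0.025) and 0.63 for Nat14 (SE 0.19, adjusted p = 0.0252). The host genes of 2 other pairs with large differences did not pass: the log2 fold change in the authors' deposited table was 0.12 (SE 0.097) for Znfx1 and -0.23 (SE 0.17) for Rfx5.

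Few other events of the same genes were called. In the 23 host genes of called pairs 2 of 573 other events were called (0.349%, against 0.23% of all events). They were the 3′ splice site of Prpf6 and an exon of Rbm14, included at 83.9% in control and 64.8% in cKO. The Prpf6 site lies at the other end of the intron of its called pair, so that it may not be a separate change. Intron retention directly behind a site was measured for 11 called pairs, and 0 of these introns were called, with differences from -14.2 to 15.9 points. The intron behind the near site of Strada was retained at 52.8% in control and 48.8% in cKO. The exons that end at the near sites of Strada and Traf2 were included at 97.9% and 93.5% in control and at 99.3% and 95.8% in cKO. The exon that ends at the near site of Parp9 was included at 98.5% in control and 89.2% in cKO, with a minimum change of 1 point in the authors' deposited table.

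The tissue and its other cells were checked on the gene table. All 8 cardiomyocyte markers were present, at 25584 normalized counts or more, and 5 were lower in cKO, with a median log2 fold change of -0.36 in the authors' deposited table. All 15 myeloid markers had positive values with a median of 0.63 in the authors' deposited table, and 7 rose. Endothelial and fibroblast markers had medians of -0.02 and 0.04 in the authors' deposited table, with 1 of 10 endothelial markers higher and 1 of 10 fibroblast markers lower in cKO. The part of these marker differences in the changed site use was not tested. Srsf3 itself had a log2 fold change of 0.02 (SE 0.07) in the authors' deposited table, a sum over transcripts that does not check the deletion.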

How the data were processed

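The authors' deposited splicing table gives, per the file headers, use of each site as a fraction in each group (PSI(Hom) for control, PSI(HomCre) for cKO), printed here as percentages. It also gives 2 score columns deposited by the authors, the expected difference and the minimum change at probability 0.95. Event coordinates are on mm9, per the file headers. The deposited gene table holds mean normalized signal, log2 fold change with standard error, Wald score, p-value and adjusted p-value. DESeq2 1.24.0 and kallisto 0.46.0 are listed by the submitters' processing notes beside Trimmomatic 0.38 and FastQC 0.10.1. Read thresholds of the splicing tool, VAST-TOOLS, are not stated there.

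No values per library were used, so the planned model over libraries was replaced by the authors' minimum change, with 10 points as the threshold, and the authors' adjusted p. Groups come from the sample descriptions. Distance is the difference between the deposited positions of the 2 sites. Positive fold changes are read as higher in cKO: of 629 genes that passed and had at least 3 exons within 3 points of full inclusion, 596 (94.8%) had the sign of their relative depth, taken from the distance of these exons to 100%.

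Pairs were matched to GENCODE M21 (GRCm38) without converting coordinates, by gene symbol (8446 direct, 734 by older symbol, 81 not matched), chromosome, strand and structure. Both exon lengths matched for 903 pairs and the long exon alone, if unique in its gene and at least 30 bases long, for 2597. A single annotated pair of exons with a common start and the right distance matched 182, and a single pair of donor sites 424, where the table gives only 1 exon end. The near site then began with GT or GC in 98.9%, 87.3%, 98.9% and 100% of the matches. Exon events of the table gave the annotated exon lengths for Strada (56 bases) and Traf2 (219 bases). Most intron bases of far sites could not be read from transcripts.

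Named pairs are all called pairs, the 2 with the largest minimum change in each distance class, the pair nearest 50% in control in each gene list, and 3 on either side of the threshold. Members and lists were chosen with earlier results of these data known. Readers were tested on made-up data. Python 3.11.15, pandas 2.3.3 and numpy 2.4.6 were used.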

Additional observations from a re-analysis of the deposited data

How the results depend on the processing

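The number of called pairs depends on the threshold. At 5 points 75 pairs passed (0.81%, against 0.633% of all events), 53 of them higher in cKO. With 15 points 8 passed and with 20 points 2, for which no share of all events is given. By an absolute difference of at least 10 points, whatever the minimum change, 343 pairs passed, also without a share of all events. Without that share the counts at 15 and 20 points and by absolute difference are no result about the pairs. Limiting the pairs to intermediate use in control, to genes with a mean of at least 100 counts or to distances of at least 4 bases left 16 to 22 calls. The share of calls in multiples of 3 was 2.85 times that in other distances, 2.54 times up to 100 bases, 1.99 times at 5 points and 1.21 times among intermediate pairs, the last 2 settings and the count of 53 being chosen after the data were seen. The ratio of the farthest to the nearest distance class was 2.58, and 2.29 with equal-sized distance classes. Of the host genes, 379 passed when p was adjusted over every gene with a p-value. No paired analysis was possible because each group has 1 value per event, and for the same reason no library could be left out.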

Other observations

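Between the called pairs and the rest stand 52 pairs with a minimum change of 5 to 9 points in the authors' deposited table, 37 higher and 15 lower in cKO, of which 25 have a distance that is a multiple of 3. From 5 points up, called pairs included, the share was 0.81% of pairs against 0.633% of all events. No share of all events was taken for the band itself, so that these counts are no result about the pairs. The examples here were named after their values were seen. In Nr3c1, the glucocorticoid receptor, whose sites are 3 bases apart, near-site use was 78.8% in control and 96.7% in cKO. In Drosha, the nuclease that cuts primary microRNAs, it was 4.83% and 20.6% over 24 bases. Sorbs2, an adaptor protein of the Z-disc, stood at 50.1% and 65.0% over 3 bases.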
